A study of Mus musculus with 6 samples.

Results

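Chemokines are small secreted proteins that guide the movement of leukocytes, and they are grouped as CC, CXC, CX3C and XC by the spacing of their first cysteines. They signal through G protein-coupled receptors that couple mainly to Gi, while the atypical receptors (Ackr genes) bind chemokines without signalling through G proteins and take many of them up for degradation. In liver, Kupffer cells, endothelial cells, stellate cells, hepatocytes and cholangiocytes can all produce chemokines, and the conventional receptors are carried mainly by leukocytes. The members described here are the protein-coding genes whose symbol begins with Ccl, Cxcl, Cx3cl, Xcl, Ccr, Cxcr or Ackr followed by a digit. There were 65 such genes, under 60 distinct symbols, among the 56305 genes of the table. They comprise 44 ligands (30 CC, 12 CXC and 2 of the CX3C or XC kind) and 21 receptors (17 conventional and 4 atypical). A further 3 symbols of this form, Ccl19-ps1, Ccl19-ps3 and Cxcl11, are not annotated as protein coding and were not counted as members.

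Transcripts were measured by polyA RNA-Seq in livers of 3 WT and 3 Vps15LKO male mice aged 5 weeks, with free access to food, at ZT6 (6 h after lights on). Vps15LKO mice (AlbCre+;Vps15 f/f) lack Vps15, the regulatory subunit of class 3 PI3K, in cells in which the albumin promoter drives Cre, so that leukocytes and other cells of the liver keep the gene. The alleles carried by the WT controls are given only as WT, and each library is 1 liver. The values are normalized counts, the reads of a gene divided by 1 size factor per library.

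The libraries held between 16137093 and 18110223 reads on genes, yet the size factors were 0.742 to 0.801 in WT against 1.23 to 1.41 in Vps15LKO livers, so that a single read stood for 1.25 to 1.35 normalized counts in a WT library against 0.707 to 0.810 in a Vps15LKO library. When libraries were instead scaled to equal totals of reads, the median log2 fold change over all tested genes moved by 0.72, and with quantile normalization it moved by −0.09. Pik3r4, which encodes Vps15, had 508, 573 and 459.7 normalized counts in WT against 341, 362 and 355 in Vps15LKO livers, a log2 fold change of −0.54 (SE 0.11, adjusted p = 0.00207 by limma with Benjamini-Hochberg adjustment) that became 0.19 at the same total of reads. The paper describes loss of 1 exon of this locus and a truncated Vps15 protein after recombination in MEFs. Counts over the whole gene do not single out that exon, so they do not measure the deletion. Defining hepatocyte genes were abundant in both genotypes, their summed normalized counts being 2800110 to 3312360 in WT against 824025 to 1258380 in Vps15LKO livers.

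Chemokine and chemokine receptor transcripts were mostly higher in the livers of Vps15LKO mice. A gene was tested where at least 3 of the 6 livers had 20 or more normalized counts, and was called at an adjusted p under 0.05 (limma, Benjamini-Hochberg over all 15430 tested genes) with a fold of at least 1.2. Of the 65 members, 31 were tested, of which 22 were called higher and 5 lower, beside 33.5% of all tested genes called higher and 33% called lower. In all 27 called members the values of the genotypes did not overlap, as was the case for 36.4% of all tested genes in the higher and 36.8% in the lower direction. The members called higher were 13 of the 19 tested ligands and 9 of the 12 tested receptors, and the members called lower were 4 ligands and 1 receptor. The median of the log2 fold changes was 2.02 for tested members and −0.02 for all tested genes. However, 10 of the 22 higher members reached 20 normalized counts only in Vps15LKO livers (Ccl2, Ccl3, Ccl4, Ccl7, Ccl22, Ccr1, Ccr7, Ccr9, Cxcr3 and Cxcr4), so that passing the filter and being higher were tied for them. Among the 18 members with 20 or more in every liver, 10 were called higher, 4 lower and 4 neither way, beside 27.9% of genes called higher and 36.2% lower under that stricter filter. At a fold of at least 2, 20 members were called higher and 3 lower, beside 20.9% and 12.7% of all tested genes.

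The direction of the higher members did not depend on the scaling. At the same total of reads 26 members were called higher and 2 lower (beside 66.8% and 11.1% of all tested genes), and the 26 included all 22. Quantile normalization left 19 of these 22 called, Ccr7, Ccr9 and Cxcr6 being lost, with 30.4% of all tested genes called higher and 37.6% lower. By contrast, of the 5 lower members just Ackr4 and Ccl27a stayed called lower at the same total of reads. On the recovered whole reads edgeR called all 27 members the same way, beside 33.5% of genes higher and 33.4% lower, and DESeq2 called 26 of them, beside 32.6% and 32.4%. In bulk liver, more cells of a type and more RNA per cell cannot be told apart. For any single gene the smallest p of an exact permutation test of 3 livers against 3 is 0.1, and fold changes are on the log2(normalized count + 1) scale, which understates changes of genes with few reads.

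**Figure D1:**
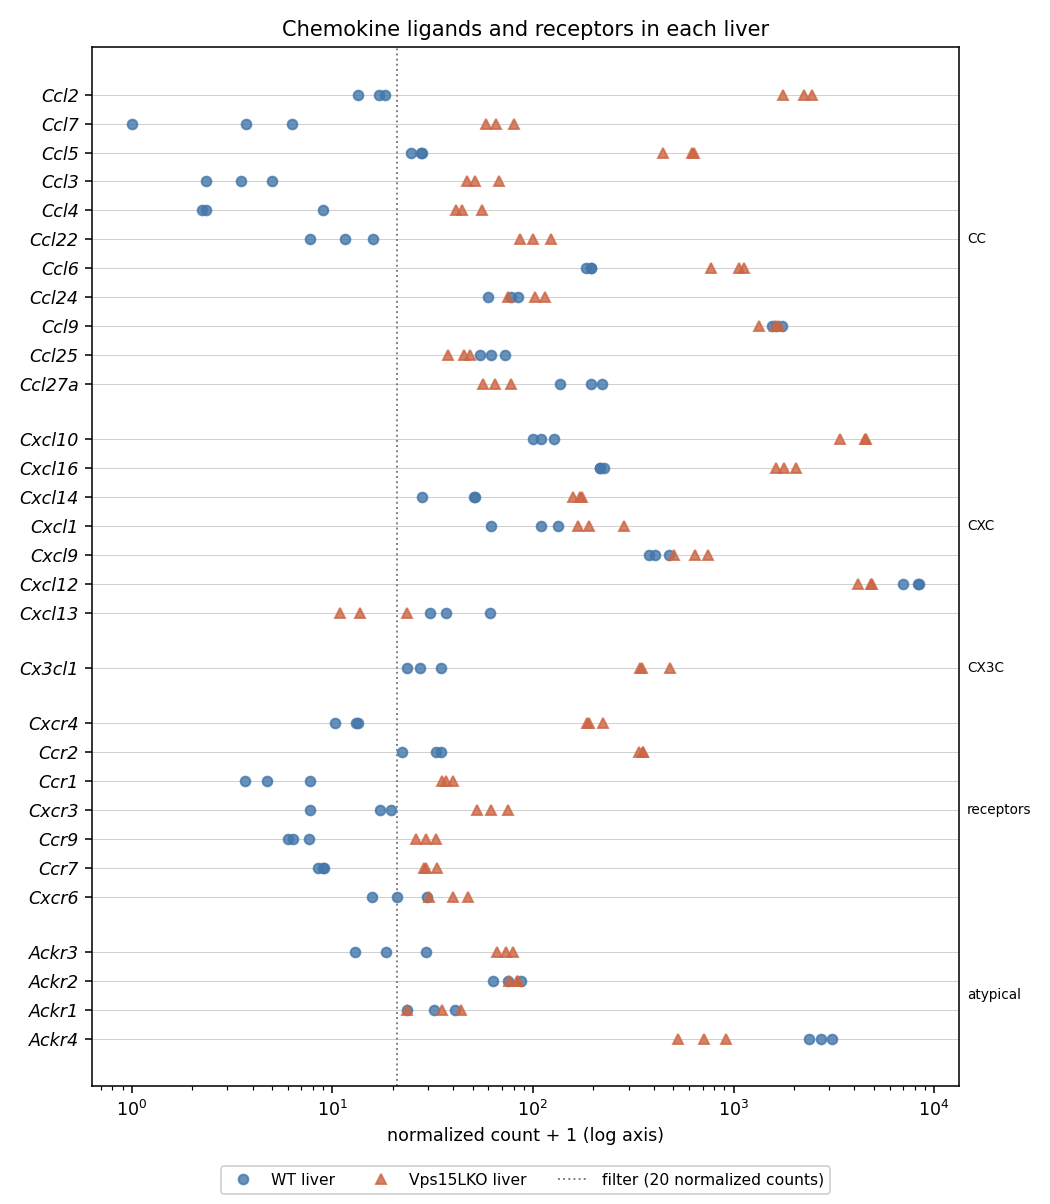
Normalized count + 1 (log axis) of 30 tested members in each of 3 WT (circles) and 3 Vps15LKO (triangles) livers, grouped by role, with the filter at 20 as a dotted line. Triangles lie to the right of circles for 21 members and to the left for 5, and Ccl2 shows the widest gap, from 12.5 to 17.2 in WT to 1756 to 2448 in Vps15LKO livers.

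Promoter sequences from RefSeq (GRCm38.p6, 250 bases before to 50 bases after a start site) are shown for 5 members that differ in direction, to let the sequences be read beside the values. Cxcl10, Ccl22 and Cxcr4 were called higher, and Cxcl12 and Ackr4 lower. Capitals mark matches, on either strand, to GGG, any 5 bases and CC (the form of an NF-κB site), to GAAA, any 2 bases and GAAA (the form of an interferon-stimulated response element) or to TGANTCA (the form of an AP-1 site). The E-box CACGTG, which Bmal1–Clock can bind, was searched as well and is in none of the 5. Cxcl10 lies at chr5:92348840-92349139 on the minus strand, Ccl22 at chr8:94745434-94745733 on the plus strand, Cxcr4 at chr1:128592250-128592549 on the minus strand, Cxcl12 at chr6:117168285-117168584 on the plus strand, and Ackr4 at chr9:104126594-104126893 on the minus strand. Each is printed 5′ to 3′ in the direction of its gene.
Cxcl10: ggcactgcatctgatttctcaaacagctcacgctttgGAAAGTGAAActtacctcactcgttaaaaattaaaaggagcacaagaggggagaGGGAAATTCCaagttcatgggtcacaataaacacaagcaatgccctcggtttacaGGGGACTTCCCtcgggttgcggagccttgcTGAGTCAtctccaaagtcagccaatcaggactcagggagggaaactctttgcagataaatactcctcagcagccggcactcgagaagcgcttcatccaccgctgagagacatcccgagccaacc
Ccl22: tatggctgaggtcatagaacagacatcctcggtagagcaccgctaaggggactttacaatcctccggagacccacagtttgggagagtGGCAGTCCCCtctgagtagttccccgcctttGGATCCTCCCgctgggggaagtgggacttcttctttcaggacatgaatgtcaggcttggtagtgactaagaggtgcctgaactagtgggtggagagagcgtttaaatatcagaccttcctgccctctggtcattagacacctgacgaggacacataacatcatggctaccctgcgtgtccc
Cxcr4: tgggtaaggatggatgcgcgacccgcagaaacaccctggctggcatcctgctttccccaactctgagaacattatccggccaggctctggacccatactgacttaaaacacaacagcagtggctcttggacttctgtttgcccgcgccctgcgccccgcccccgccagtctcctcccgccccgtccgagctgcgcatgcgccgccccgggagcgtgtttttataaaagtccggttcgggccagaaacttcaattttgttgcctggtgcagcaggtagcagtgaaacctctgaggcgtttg
Cxcl12: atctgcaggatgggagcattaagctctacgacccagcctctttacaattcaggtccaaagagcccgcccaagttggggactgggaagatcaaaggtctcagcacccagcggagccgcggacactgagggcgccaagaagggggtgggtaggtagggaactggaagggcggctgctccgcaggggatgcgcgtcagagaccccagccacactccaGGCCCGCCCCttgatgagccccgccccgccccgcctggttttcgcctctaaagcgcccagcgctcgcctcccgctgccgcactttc
Ackr4: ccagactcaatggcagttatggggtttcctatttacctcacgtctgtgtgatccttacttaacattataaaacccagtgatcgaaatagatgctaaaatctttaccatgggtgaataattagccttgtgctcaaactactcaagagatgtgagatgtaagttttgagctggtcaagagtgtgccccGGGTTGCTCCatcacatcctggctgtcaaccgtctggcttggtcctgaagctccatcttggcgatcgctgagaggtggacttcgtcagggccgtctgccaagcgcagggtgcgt

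The Cxcl10 promoter held an interferon-type match at bases 38 to 47 of the printed run, an NF-κB-type match at bases 92 to 101, a pair of overlapping NF-κB-type matches between bases 147 and 157, and an AP-1-type match at bases 177 to 183. Ccl22 held 2 NF-κB-type matches, Cxcl12 and Ackr4 held 1 each, and Cxcr4 held none of the 4 motifs. Promoters could be matched for 44 of the 60 symbols and for 23 of the 31 tested members, leaving Ccl2, Ccl4, Ccl5, Ccl7, Ccl24, Cxcl16 and Ccr7 among those without one. The NF-κB-type motif was in 7 of the 15 promoters of higher members and in 6 of the 8 promoters of lower members, beside 50.8% of all 32851 promoters. The 8 windows belong to 5 genes, 3 of them (2 overlapping) being windows of Ccl27a and 2 of Ccl25, so that by gene the motif was in 4 of the 5 lower and 7 of the 15 higher members with a promoter. An interferon-type match was in 2 of the 15 (Cxcl10 and Cxcl14) and in 0 of the 8, beside 3.44% of all promoters. AP-1-type matches were in 2 of the 15 (Cxcl9 and Cxcl10) and 1 of the 8, beside 7.81%. CACGTG was in none of these 23 windows, beside 7.15% of all promoters.

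Among the CC ligands, 11 of 30 were tested, and 7 were called higher and 2 lower, beside 33.5% and 33% of all tested genes. Of the 7, 5 (Ccl2, Ccl3, Ccl4, Ccl7 and Ccl22) had reached the filter only in Vps15LKO livers, which fixed their direction. Ccl2, the main monocyte attractant acting on Ccr2, had 17.2, 12.5 and 16.2 normalized counts in WT against 2448, 1756 and 2253 in Vps15LKO livers. The lowest Vps15LKO liver was thus far above the highest WT liver, and the log2 fold change of 7.04 (SE 0.17, limma adjusted p = 8.39e-08) was the largest of the 31 members. Ccl7, a further ligand of Ccr2 that lies next to Ccl2, had 5.30, 0 and 2.70 in WT against 79.4, 57.5 and 64.4 in Vps15LKO livers. With 6 WT reads in all, its ratio of 25.7 had an exact 95% counting interval of 11.7 to 70.7, and its log2 fold change was 4.56 (SE 0.62, limma adjusted p = 2.40e-04).

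Further inflammatory CC ligands were higher as well, of which Ccl3 and Ccl4 reached the filter only in Vps15LKO livers, which fixed their direction. Ccl5, which is made by T cells, NK cells and many stimulated cells, had 26.5, 23.7 and 27.0 normalized counts in WT against 622, 442 and 637 in Vps15LKO livers, a log2 fold change of 4.39 (SE 0.17, limma adjusted p = 4.72e-07). Ccl3, an inflammatory ligand of Ccr1, had 3.98, 2.50 and 1.35 in WT against 45.8, 50.2 and 66.5 in Vps15LKO livers. Its log2 fold change was 3.98 (SE 0.38, limma adjusted p = 3.28e-05), and the ratio of 20.9 had a counting interval of 9.44 to 57.6. Ccl4, its neighbour, attracts macrophages and T cells. It had 7.96, 1.25 and 1.35 in WT against 43.5, 40.5 and 54.5 in Vps15LKO livers, a log2 fold change of 3.69 (SE 0.55, limma adjusted p = 3.80e-04) with a counting interval of the ratio from 6.63 to 31.4. Quantile normalization gave smaller log2 fold changes of 3.32 for Ccl7, 2.59 for Ccl3 and 2.34 for Ccl4, each still called.

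Ccl22, a product of dendritic cells and macrophages that attracts cells bearing Ccr4, had 10.6, 15.0 and 6.74 normalized counts in WT against 85.5, 98.9 and 122 in Vps15LKO livers, a log2 fold change of 3.18 (SE 0.30, limma adjusted p = 3.44e-05) that was 2.32 under quantile normalization. Ccl6, a myeloid chemokine found in rodents, had 194, 184 and 194 in WT against 1122, 1066 and 774 in Vps15LKO livers, a log2 fold change of 2.35 (SE 0.14, limma adjusted p = 3.87e-06). Its neighbour Ccl9 is also a myeloid ligand of Ccr1 in rodents. It had one of the highest ligand levels per kb of exon in WT liver and did not follow. Its values of 1626, 1555 and 1735 in WT against 1609.8, 1687 and 1331 in Vps15LKO livers overlapped, and its log2 fold change was −0.09 (SE 0.11, limma adjusted p = 0.479), but 0.63 and called higher at the same total of reads. Ccl24, an eosinophil attractant acting on Ccr3, had 83.5, 58.7 and 76.8 in WT against 102, 114 and 74.3 in Vps15LKO livers, which overlapped. Its log2 fold change was 0.39 (SE 0.21, limma adjusted p = 0.133), rising to 1.11 with a call at the same total of reads and changing sign to −0.12 under quantile normalization.

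The 2 lower CC ligands are known for homeostatic roles. Ccl27a, an attractant of skin-homing T cells through Ccr10, had 220.1, 194 and 136 normalized counts in WT against 63.4, 77.0 and 55.2 in Vps15LKO livers, with no overlap. Its log2 fold change was −1.46 (SE 0.21, limma adjusted p = 3.28e-04), and it stayed called at the same total of reads (−0.74). Near-identical copies are annotated (Ccl27b and 2 genes named Ccl27), and how reads that map to several copies were counted is not stated in the sources used here. Ccl25, a thymic and intestinal attractant acting on Ccr9, had 61.0, 53.7 and 71.4 in WT against 36.7, 47.8 and 44.6 in Vps15LKO livers. The gap between genotypes was narrow, with a log2 fold change of −0.52 (SE 0.20, limma adjusted p = 0.0440). DESeq2 gave a like value of −0.53 that was not called, and the limma fit without a filter did not call it either (adjusted p = 0.0746). At the same total of reads the value turned to 0.19, while under quantile normalization it was −1.15. Leaving out any 1 liver other than WT replicate 2 also ended this call, with adjusted p from 0.0535 to 0.152.

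All 7 tested CXC ligands of 12 were called, 5 higher and 2 lower, beside 33.5% of all tested genes called higher and 33% lower. Cxcl10, an interferon-inducible ligand of Cxcr3 whose promoter is printed above, had 109, 98.7 and 127 normalized counts in WT against 4590, 3376 and 4508 in Vps15LKO livers. Its lowest Vps15LKO liver stood far above its highest WT liver, with a log2 fold change of 5.20 (SE 0.15, limma adjusted p = 1.35e-07). Exons of Art3 on the other strand cover 5.91% of Cxcl10, and Art3 was itself higher, from 55.9 ± 6.22 in WT to 428 ± 57.6 in Vps15LKO livers (mean ± SD, n = 3). Whether counting used the strand is not stated, so reads of such partners cannot be told apart where they overlap. Cxcl9, which shares the receptor Cxcr3 and lies beside Cxcl10, changed far less. It had 379, 403 and 477 in WT against 644, 748 and 504 in Vps15LKO livers, a log2 fold change of 0.58 (SE 0.16, limma adjusted p = 0.0103).

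Cxcl16, a membrane-bound chemokine that binds Cxcr6, had 215, 215 and 224 normalized counts in WT against 1792, 1632 and 2052 in Vps15LKO livers, a log2 fold change of 3.06 (SE 0.10, limma adjusted p = 3.20e-07). Exons of Zmynd15 on the other strand cover 18.3% of this gene, and Zmynd15 rose from 113 ± 1.48 to 555 ± 54.2 (mean ± SD, n = 3). Cxcl14, which is made by many epithelia and has no settled signalling receptor, had 50.4, 49.96 and 27.0 in WT against 157, 170.2 and 175 in Vps15LKO livers, a log2 fold change of 2.01 (SE 0.24, limma adjusted p = 1.28e-04). Cxcl1, a neutrophil attractant acting on Cxcr2, varied most within each genotype, relative to its mean, of the higher CXC ligands. Its values were 133, 109 and 60.7 in WT against 189, 166 and 284 in Vps15LKO livers, a log2 fold change of 1.11 (SE 0.30, limma adjusted p = 0.0106).

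Cxcl12, the ligand of Cxcr4 and Ackr3 that retains cells in bone marrow and other tissues, was the ligand with the highest level per kb of exon in every WT liver. It had 8416, 8305 and 6975 in WT against 4161, 4901 and 4839.9 in Vps15LKO livers, so that each Vps15LKO liver was below each WT liver. The log2 fold change of −0.77 (SE 0.12, limma adjusted p = 6.55e-04) was −0.04 at the same total of reads (adjusted p = 0.752) and 0.04 under quantile normalization (adjusted p = 0.799), so its direction rested on the scaling. Cxcl13, the B cell attractant acting on Cxcr5, had 35.8, 60.0 and 29.7 in WT against 9.93, 22.7 and 12.7 in Vps15LKO livers. Its log2 fold change of −1.42 (SE 0.38, limma adjusted p = 0.00927) kept its sign at the same total of reads (−0.73) without passing the threshold there (adjusted p = 0.0917), and was −2.66 under quantile normalization.

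Cx3cl1, a chemokine tethered to epithelial and endothelial membranes, was the one tested member of the CX3C and XC kind. It had 22.5, 26.2 and 33.7 normalized counts in WT against 348, 339.5 and 481 in Vps15LKO livers, a log2 fold change of 3.78 (SE 0.20, limma adjusted p = 1.96e-06). Xcl1, the XC ligand made by NK and T cells, failed the filter with 2, 2 and 1 reads in WT against 39, 27 and 25 reads in Vps15LKO livers. Per normalized count this was a ratio of 10.6 (exact 95% counting interval 4.36 to 33.3).

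All 8 tested conventional receptors of 17 were called higher in the livers of Vps15LKO mice, beside 33.5% of all tested genes, and 5 of them had reached the filter only there. With quantile normalization 5 of the 8 were called higher, beside 30.4% of all tested genes. Cxcr4, the receptor of Cxcl12 found on most leukocytes, had 9.28, 12.5 and 12.1 normalized counts in WT against 189, 184 and 222 in Vps15LKO livers, a log2 fold change of 4.02 (SE 0.20, limma adjusted p = 1.29e-06) that was 3.31 under quantile normalization. Ccr2, the receptor that marks inflammatory monocytes, had 31.8, 21.2 and 33.7 in WT against 338, 354 and 352 in Vps15LKO livers. Its Vps15LKO values lay within a narrow range far above WT, with a log2 fold change of 3.57 (SE 0.19, limma adjusted p = 1.89e-06).

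A further 4 receptors, Ccr1, Cxcr3, Ccr9 and Ccr7, reached the filter only in Vps15LKO livers, which fixed their direction, so their values are given as a description. Ccr1, a receptor of monocytes and neutrophils, had 2.65, 3.75 and 6.74 normalized counts in WT against 35.9, 34.0 and 38.9 in Vps15LKO livers, with a log2 fold change of 2.86 (SE 0.36, limma adjusted p = 1.61e-04) and a ratio of 8.36 (counting interval 4.41 to 17.8). Cxcr3, the receptor of activated T and NK cells, had 18.6, 16.2 and 6.74 in WT against 61.1, 51.9 and 74.3 in Vps15LKO livers, a log2 fold change of 2.19 (SE 0.37, limma adjusted p = 8.04e-04). Ccr9, the gut-homing receptor, had 6.63, 4.996 and 5.39 in WT against 28.3, 25.1 and 31.8 in Vps15LKO livers, a log2 fold change of 2.14 (SE 0.30, limma adjusted p = 2.91e-04). An unnamed transcript on the other strand covers 18.8% of the exons of Ccr9, and it moved the other way, from 91.4 ± 4.84 in WT to 55.3 ± 2.24 in Vps15LKO livers (mean ± SD, n = 3). Ccr7, which guides dendritic cells and naive T cells to lymph nodes, had 7.96, 7.49 and 8.09 in WT against 32.1, 27.6 and 28.3 in Vps15LKO livers, a log2 fold change of 1.77 (SE 0.27, limma adjusted p = 4.53e-04). The counting intervals were 2.83 to 9.77 for the ratio of Ccr9 and 2.26 to 6.53 for that of Ccr7. Quantile normalization ended the calls of Ccr9 (0.73, adjusted p = 0.0655) and Ccr7 (0.54, adjusted p = 0.111), and gave 1.502 for Ccr1 and 1.33 for Cxcr3, both still called.

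Cxcr6, a receptor of liver-resident T and NKT cells, was the least certain. Its values of 19.9, 28.7 and 14.8 normalized counts in WT against 38.9, 29.2 and 46.7 in Vps15LKO livers nearly met, with a log2 fold change of 0.85 (SE 0.31, limma adjusted p = 0.0357). The call was lost when WT replicate 1 or 3 or Vps15LKO replicate 1 or 3 was left out, with adjusted p from 0.0781 to 0.117, and under quantile normalization the log2 fold change was 0.02.

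All 4 atypical receptors were tested, and they went different ways. Ackr3, which scavenges Cxcl12, had 11.9, 17.5 and 28.3 normalized counts in WT against 64.9, 78.6 and 72.1 in Vps15LKO livers, a log2 fold change of 1.93 (SE 0.31, limma adjusted p = 5.66e-04) that was 1.18 under quantile normalization. Ackr4, which scavenges Ccl19, Ccl21 and Ccl25, fell from 3100.1, 2716 and 2386 in WT to 709, 912 and 529.8 in Vps15LKO livers. The log2 fold change was −1.96 (SE 0.19, limma adjusted p = 3.74e-05), and it was also called lower at the same total of reads (−1.23) and under quantile normalization (−1.66). Exons of Acad11, an acyl-CoA dehydrogenase gene on the other strand, cover 479 bases or 8.90% of Ackr4. Acad11 had 7526 ± 724 normalized counts in WT against 2028 ± 614 in Vps15LKO livers (mean ± SD, n = 3), a log2 fold change of −1.93, and its part in the values of Ackr4 was not tested. The Ackr2 scavenger of inflammatory CC chemokines had 74.3, 62.5 and 86.3 in WT against 74.8, 81.8 and 83.5 in Vps15LKO livers. Ackr1, which binds chemokines on venular endothelium and red cells, had 39.8, 22.5 and 31.0 in WT against 34.4, 42.9 and 22.6 in Vps15LKO livers. Both overlapped between genotypes, with log2 fold changes of 0.12 (SE 0.17, limma adjusted p = 0.567) and 0.09 (SE 0.31, limma adjusted p = 0.819), and both were called higher at the same total of reads (0.83 and 0.79). Cadm3 shares 25.7% of the exonic bases of Ackr1 on the same strand and was lower in Vps15LKO livers (213 ± 19.2 against 128 ± 10.3, mean ± SD, n = 3).

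**Figure D2:**
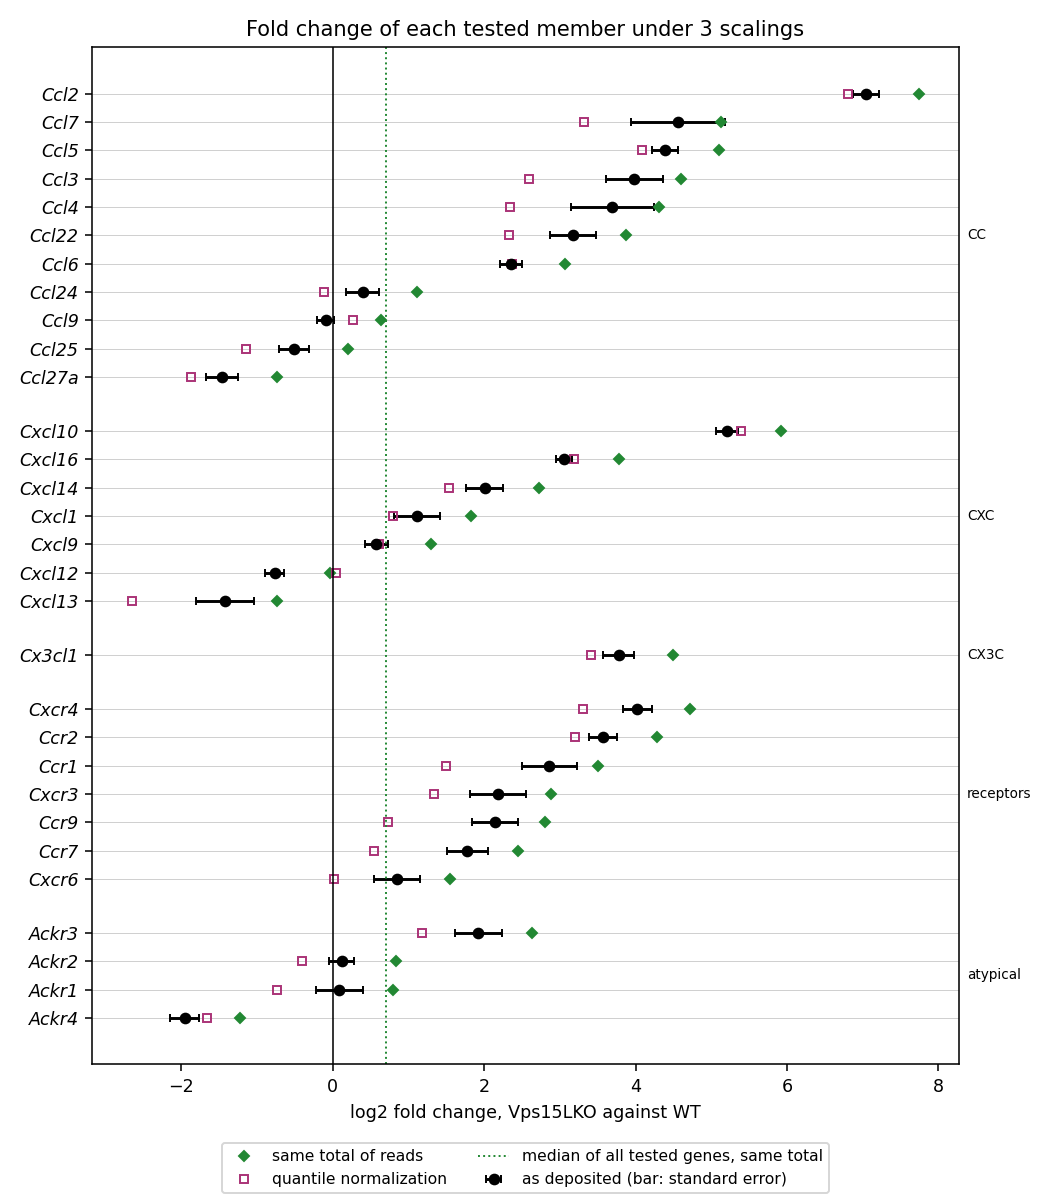
Log2 fold change of 30 tested members in Vps15LKO against WT livers as deposited (black, bars: standard error), with all libraries at the same total of reads (diamonds) and after quantile normalization (open squares), and the median of all tested genes at the same total as a dotted line. From Ccl2 (7.04) down to Cxcl9 (0.58) the 21 higher members shown stay to the right of 0 under all 3 scalings, whereas Cxcl12, Ccl25, Ccl9, Ccl24, Ackr1 and Ackr2 cross 0.

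The 34 members that failed the filter comprised 10 with no read in any liver and 24 with few reads. The former were 7 copies of Ccl19, Ccl21 and Ccl27 genes on unplaced scaffolds together with Ccl21b on chromosome 4, Ccl26 and Cxcl15. Because the scaffold genes have close copies elsewhere, a value of 0 may depend on how reads with several positions were counted. Only Xcl1 and Cxcl2 reached 20 normalized counts in 1 or 2 livers. Cxcl2, a neutrophil attractant, had 1, 3 and 1 reads in WT against 27, 25 and 23 reads in Vps15LKO livers, a ratio of 8.70 (exact 95% counting interval 3.57 to 27.6). The other 22 were Ccl1, Ccl8, Ccl11, Ccl12, Ccl17, Ccl19, Ccl20, Ccl21a, Ccl27b, Ccl28, Cxcl3, Cxcl5, Cxcl17, Ccr1l1, Ccr3, Ccr4, Ccr6, Ccr8, Ccr10, Cxcr1, Cxcr2 and Cxcr5, none above 17.0 normalized counts in any liver. When the filter was dropped, 9 of the 24 were called higher (Ccl1, Ccl8, Ccl12, Ccl17, Ccl20, Cxcl2, Cxcl5, Xcl1 and Ccr4) and 0 lower, beside 23.4% and 18% of the genes then tested. Cxcr1 and Cxcr2, the neutrophil receptors of Cxcl1 and Cxcl2, had at most 9 reads in any liver.

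Levels of different genes were compared as normalized counts per kb of exon, and the share of a gene in the summed level of its class within 1 liver does not depend on the scaling between livers. The summed ligand level was 2208 ± 106 per kb in WT against 7583 ± 687 in Vps15LKO livers (mean ± SD, n = 3), and 1724 ± 19.9 against 9845 ± 1430.3 at the same total of reads. Cxcl12 made up 43.7% ± 2.58 of the ligand level in WT against 7.55% ± 1.26 in Vps15LKO livers, and Ccl9 24.4% ± 2.41 and 6.75% ± 1.30. In their place, Ccl2 went from 0.610% ± 0.102 to 24.8% ± 1.97 and Cxcl10 from 2.25% ± 0.384 to 24.2% ± 1.92 (SD, n = 3 each). The shares of Ccl2 and Cxcl10 in the Vps15LKO livers differed by less than the spread between the livers, while none of these 4 genes overlapped between genotypes. By mean, Cxcl16 and Ccl5 followed, with 7.97% ± 0.672 and 7.74% ± 0.870 of the ligand level in Vps15LKO livers. Cxcl12 and Ccl6 (7.31% ± 1.65) lay within this spread, and in Vps15LKO replicate 2 both were above Cxcl16 and Ccl5.

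The receptors showed a turnover of the same kind. Their summed level was 619 ± 66.3 per kb in WT against 519 ± 23.2 in Vps15LKO livers (mean ± SD, n = 3), a direction that turned at the same total of reads, where it was 483 ± 32.0 against 670.1 ± 21.3. Ackr4 accounted for 81.9% ± 2.08 of the receptor level in WT and for 25.5% ± 5.73 in Vps15LKO livers. Reads of Acad11 cannot be told apart where its exons overlap Ackr4, and their part in these shares was not tested. Cxcr4 went from 1.03% ± 0.247 to 21.2% ± 2.98, and Ccr2 from 0.697% ± 0.191 to 9.94% ± 0.404 (SD, n = 3 each). The shares of Ackr4 and Cxcr4 overlapped among the Vps15LKO livers.

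**Figure D3:**
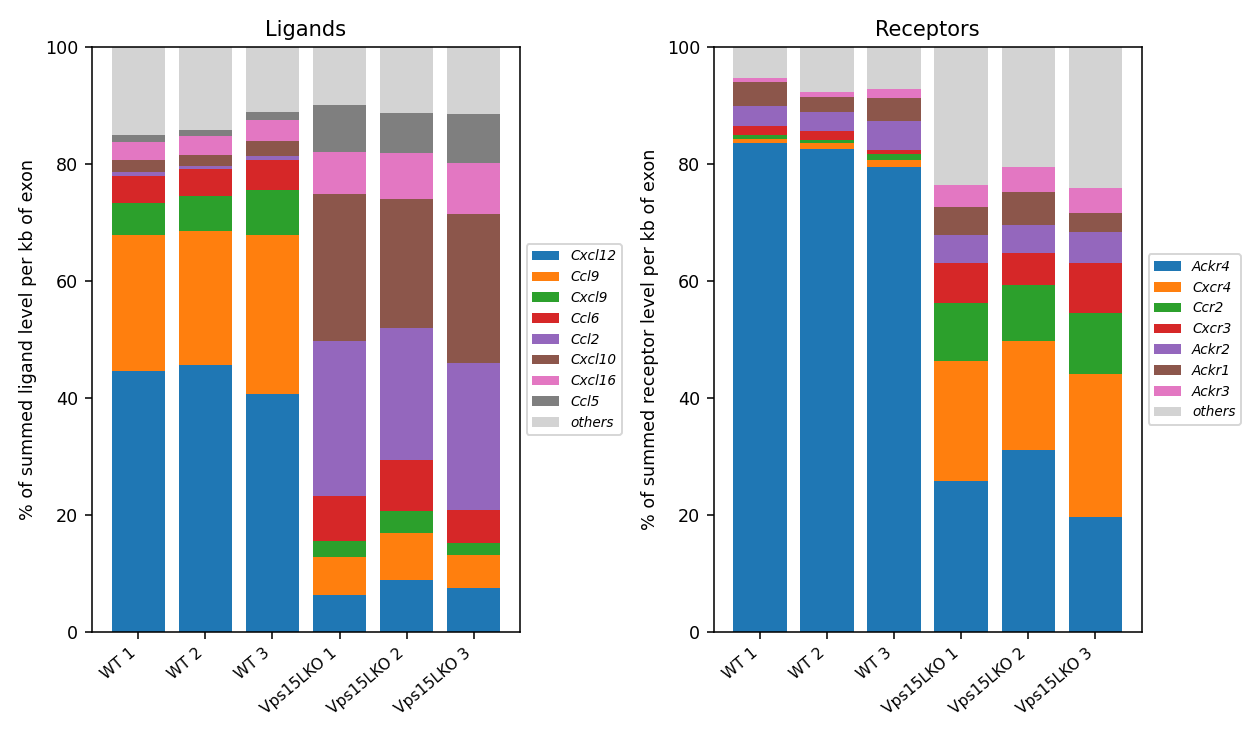
Share (%) of the leading genes in the summed ligand level (left) and receptor level (right), in normalized counts per kb of exon, with 1 stacked bar per liver and the remaining genes in light grey. Cxcl12 and Ccl9 fill most of each WT ligand bar and Ccl2 and Cxcl10 each fill 22.0% to 26.5% of every Vps15LKO bar, while Ackr4 shrinks from 79.6% to 83.6% of the receptor level in WT to 19.6% to 31.1% in Vps15LKO livers.

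Ligands and their receptors were then set side by side over 32 known pairs. Both genes of 15 pairs were tested, and both were called higher in 11. Among these were Ccl2 and Ccl7 with Ccr2, Ccl3 and Ccl6 with Ccr1, Cxcl9 and Cxcl10 with Cxcr3, Cxcl16 with Cxcr6, and Cx3cl1 with Cx3cr1. In 8 of the 11, a gene of the pair (Ccl2, Ccl3, Ccl4, Ccl7, Ccr1 or Cxcr3) reached the filter only in Vps15LKO livers, so its direction was fixed by the filter and the count of 11 is a description alone. In 3 pairs the calls were opposite, the receptor being higher and the ligand lower, namely Ccl25 with Ccr9 and Cxcl12 with Cxcr4 and with Ackr3, of which Ccr9 and Cxcr4 were likewise tested only through the Vps15LKO livers. At the same total of reads the ligands of these 3 pairs were no longer called lower, while the receptors stayed higher (2.80 for Ccr9, 4.72 for Cxcr4 and 2.63 for Ackr3). In the pair of Ccl9 and Ccr1 just the receptor was called. Several pairs share a gene, so they are not independent of each other.

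**Figure D4:**
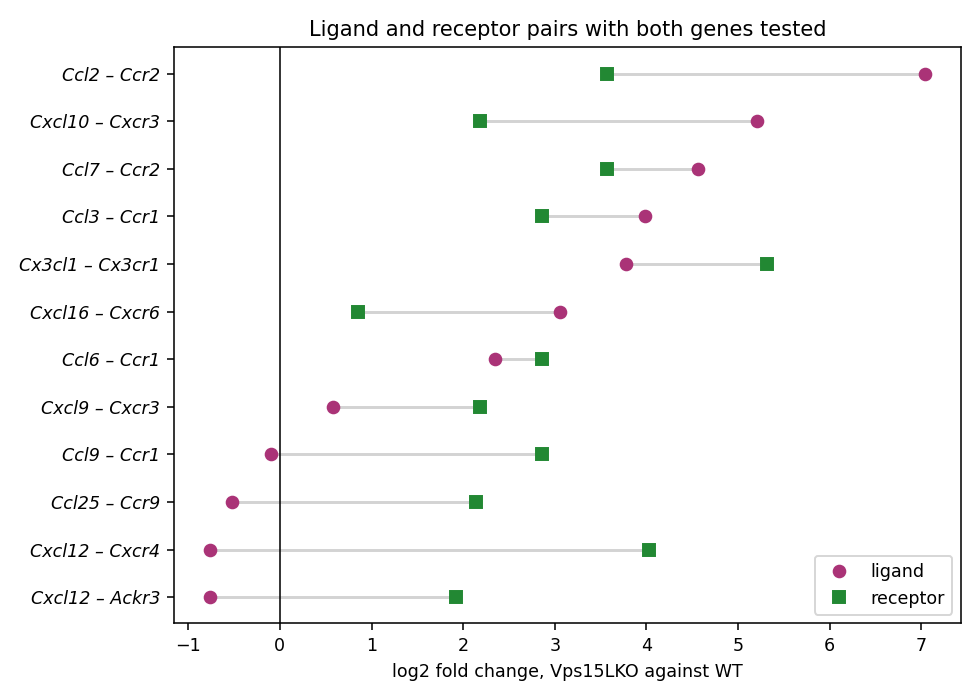
Log2 fold change (Vps15LKO against WT) of the ligand (circle) and the receptor (square) of 12 pairs in which both genes were tested, ordered by the ligand. The receptor lies to the right of 0 in all 12, and the ligand lies to its left in the pairs of Cxcl12, Ccl25 and Ccl9.

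Many members are neighbours in the genome, and genes within 1 Mb of the next member were taken as a cluster, which gave 12 clusters. On chromosome 11, the cluster from Ccl5 to Ccl4 had 4 of its 5 members called higher, of which Ccl3 and Ccl4 reached the filter only in Vps15LKO livers, and Ccl9, in its midst, called neither way. In the cluster from Ccl2 to Ccl1, also on chromosome 11, the 2 tested members of 6 (Ccl2 and Ccl7) were higher, and both passed the filter only through the Vps15LKO livers, which fixed their direction. The receptor cluster of chromosome 9 that begins at Ccr9 had all 5 tested genes of 7 called higher, with log2 fold changes from 0.85 (Cxcr6) to 3.57 (Ccr2), 2 of them (Ccr9 and Ccr1) being tested only through the Vps15LKO livers. Ccl22 and Cx3cl1 on chromosome 8 rose by 3.18 and 3.78, Ccl22 again passing only through the Vps15LKO livers, whereas the neighbours Cxcl9 and Cxcl10 on chromosome 5 rose by 0.58 and 5.20.

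**Figure D5:**
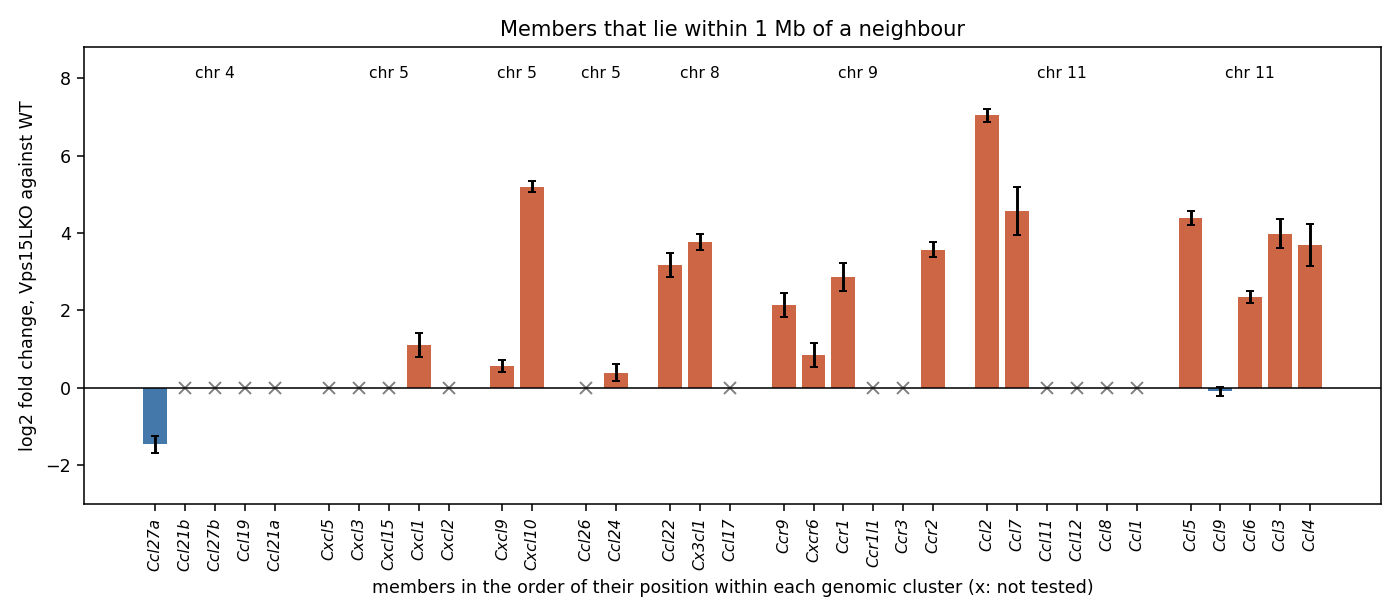
Log2 fold change with its standard error for members in each genomic cluster with at least 1 tested gene, in positional order, crosses marking genes that were not tested. On chromosomes 8, 9 and 11 the tested neighbours are higher in Vps15LKO livers apart from Ccl9 (−0.09), and on chromosome 4 Ccl27a is lower (−1.46).

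The higher members did not move evenly across the Vps15LKO livers. Of the 22, replicate 2 was the lowest Vps15LKO liver in 14 and replicate 3 the highest in 13. Leaving out each liver in turn gave 21 or 22 higher and 4 or 5 lower members, beside 30.1% to 33.4% of all tested genes called higher and 28.8% to 32.9% lower.

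Of 5 family members with other symbols, 4 were tested and called higher, but Pf4 and Xcr1 reached the filter only in Vps15LKO livers, which fixed their direction. Cx3cr1, the receptor of Cx3cl1 on monocytes and macrophages, had 17.2, 13.7 and 22.9 normalized counts in WT against 664, 705 and 860.1 in Vps15LKO livers, a log2 fold change of 5.31 (SE 0.20, limma adjusted p = 4.17e-07). Pf4, the platelet and megakaryocyte chemokine, rose by 3.14, the chemerin-binding Ccrl2 by 2.13 and the Xcl1 receptor Xcr1, a marker of cross-presenting dendritic cells, by 0.87 on the log2 scale. Of 8 tested genes for other chemoattractants and for the trimming or binding of chemokines, 2 were higher and 3 lower, near the 33.5% and 33% of all tested genes, with 5 and 2 at the same total of reads and 4 and 2 with quantile normalization. The chemerin receptor Cmklr1 (1.93) and the complement receptor C5ar1 (3.45) were called higher, and chemerin itself (Rarres2, −0.68), the protease Dpp4 (−1.59), which trims and inactivates Cxcl10 and Cxcl12, and the heparan sulfate carrier Sdc4 (−1.48) were lower. Rarres2 was at 0.05 at the same total of reads, while Dpp4 (−0.86) and Sdc4 (−0.76) were called lower there too. C5ar1, named here after its value was seen, reached the filter only in Vps15LKO livers.

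Genes that act downstream of chemokine receptors were called higher in 27 of the 33 tested of 34, with a median log2 fold change of 1.33, beside 33.5% called higher and a median of −0.02 over all tested genes. The most abundant called ones were the Gi subunit Gnai2 (1.23), the small GTPase Cdc42 (0.56), the Gβ subunit Gnb1 (1.09) and the receptor kinase Grk2 (0.81). One gene was lower, Rgs16, which speeds the turn-off of G proteins (named after its value was seen). It had 1525, 1548 and 384 normalized counts in WT against 338, 358 and 184 in Vps15LKO livers, with 1 WT liver far below the others, and its call was lost at the same total of reads. Among genes of the pathways that induce chemokines (cytokines, NF-κB, interferon and Toll-like receptor genes), 14 of the 18 tested of 23 were higher and 0 lower, with a median of 1.39, beside the same 33.5% and the 33% called lower over all tested genes, 1 of them (Tnf) reaching the filter only in Vps15LKO livers. The most abundant called ones were Irf7 (1.22), Rela (0.47), Jun (1.75) and Nfkb1 (0.91). The list also holds inhibitors of NF-κB, of which Tnfaip3 (2.56) is among the 14 and Nfkbia (0.06) was not called. Lta and Ifnb1 had no read in WT livers, and Ifng, Il6 and Il17a failed the filter.

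Markers of several cell types moved along with the chemokine genes, and their counts stand beside 33.5% of all tested genes called higher and 33% called lower. Markers that reached the filter only in Vps15LKO livers, whose direction was thereby fixed, were 5 of the 6 tested for neutrophils (S100a8, S100a9, Mpo, Ngp and Ltf, leaving Csf3r), 5 of 9 for T cells, 4 of 9 for monocytes and recruited macrophages, 3 of 7 for dendritic cells, 1 of 3 for NK cells and 1 of 8 for cholangiocytes. Lower in Vps15LKO livers were 8 of the 9 tested hepatocyte markers. Of the macrophage and Kupffer cell markers, 10 of 14 were called higher and 1, Cd163, lower, and their summed normalized counts were 12118 to 14095 in WT against 38031 to 42258 in Vps15LKO livers. Monocyte and recruited macrophage markers were higher in 9 of 9, with sums of 579.6 to 621 against 7876 to 10288. All 6 tested neutrophil markers of 10 were higher (73.7 to 87.6 against 599 to 767), and Ly6g, Mpo and Ngp had no read in WT livers. T cell markers were higher in 9 of the 9 tested of 10 (134 to 147 against 519 to 635), and dendritic cell markers in 7 of 7 (164 to 195 against 703 to 820.4). For NK cells, 2 of the 3 tested of 8 (Klrk1 and Nkg7) were higher (76.2 to 93.0 against 200.2 to 268), and for B cells 1 of the 2 tested of 6 (Cd79b), with sums that overlapped (78.2 to 129 against 86.3 to 124). Stellate cell and fibroblast markers were higher in 10 of 10 (7329.9 to 7816 against 27251 to 31447) and cholangiocyte markers in 8 of 8 (831 to 888 against 2651 to 4108). Endothelial markers were split, with Pecam1, Cdh5, Stab1, Lyve1 and Vwf higher and Kdr, Stab2, Clec4g, Oit3 and Tek lower of 11, and their sums overlapped (10883 to 12024 against 9992 to 11945). At the same total of reads 7 of the 11 were higher and 0 lower, beside 66.8% and 11.1% of all tested genes, and with quantile normalization 6 were higher and 3 lower, beside 30.4% and 37.6%. Quantile normalization also left 5 of the 9 T cell markers and 4 of the 7 dendritic cell markers called higher, 0 of the 2 B cell markers higher and 1 lower, and 5 of the 9 hepatocyte markers lower. The part of these cell types in the chemokine and receptor levels was not tested.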

How the data were processed

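RNA-Seq of the livers of 3 WT and 3 Vps15LKO mice was analysed from 1 table. Per the labels and methods, SOAPnuke was used for read filtering, HISAT2 for alignment to GRCm38, featureCounts (Subread) for gene counts and DESeq2 for normalization. Tool versions, strand and multi-mapping settings are not given in the sources used here. The deposited table holds a signal (each gene's reads over the size factor of that library), and 100% of its values gave whole reads (within 0.01) when divided by the smallest step. Gene symbols, exons and biotypes came from GENCODE M21 and matched 55227 of 56305 genes. The sample labels gave the groups and the methods gave age and ZT. Mice were bred so that litters held both genotypes, but replicates are not assigned to litters, so p-values measure the spread between these mice.

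The values were compared as log2(normalized count + 1) with limma 3.58.1 in R 4.3.3 (lmFit and eBayes with a trend), with Benjamini-Hochberg adjustment over 15430 genes. Members, lists and ligand-receptor pairs were chosen with earlier results of these data known, so no p over a list is given. Of the members, 1 is counted in the totals but not reported here. The others are described, with values in every liver for those called or dependent on the scaling, and from each list at most 4 genes, those of highest mean that were called, apart from genes named as chosen later, the genes that share exons with a member, the called NK, B cell, endothelial and macrophage markers behind counts of 5 or fewer, and the untested inducers. Intervals for ratios from 25 or fewer WT reads are exact (95%) and cover counting error only. Tested on simulated data for this comparison over 15192 genes, the fit recovered 40% of 1.5-fold, 86.4% of 2-fold and 100% of 4-fold changes, with 8 false calls. The simulation changed 200 genes at a dispersion of 0.02 that was set and not estimated. In the data 66.5% of all tested genes were called, so these rates need not hold there. Pairs of libraries of 1 genotype differed beyond sampling noise (chi-square of 14.0 to 36.4 as a mean over genes). The alternatives were pseudocounts of 0.1 and 10, other filters, scalings and thresholds, limma without a trend, voom, edgeR 4.0.16, DESeq2 1.42.0, a replicate block, each liver left out, and members overlapping another gene left out. Tables were made with Python 3.11.15, pandas 2.3.3, numpy 2.4.6 and scipy 1.17.1, and plots with matplotlib 3.10.9.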

Additional observations from a re-analysis of the deposited data

How the results depend on the processing

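Counts of called members moved with the filter, the scaling, the fold threshold and the handling of overlapping genes. With 20 or more normalized counts required in every liver, 10 members were higher (8 ligands and 2 receptors), beside 27.9% of the genes then tested. Without a filter 21 ligands were higher, beside 23.4% of the genes then tested. Lower members were 2 (1 ligand) at the same total of reads, beside 11.1% of all tested genes called lower. At a fold of at least 2 they were 3 (2 ligands), beside 12.7%. When members overlapping another gene were left out they were 2 (both ligands, with 0 receptors), beside 33% in the main fit. Signs turned for 6 members, of which Cxcl12 and Ccl25 had been called lower. Ackr1 was at −0.0064 with upper-quartile scaling, −0.73 with quantile normalization, and between −0.12 (without WT replicate 2) and 0.33 (without Vps15LKO replicate 3) with 1 liver left out. Ackr2 was at −0.41 with quantile normalization and between −0.0014 (without WT replicate 2) and 0.23 with 1 liver left out, and Ccl9 at 0.63 at the same total, 0.26 with quantile normalization and between −0.16 and 0.0098 (without Vps15LKO replicate 3) with 1 liver left out. Ccl24 (−0.12) and Cxcl12 (0.036) turned with quantile normalization and Ccl25 (0.19) at the same total of reads. The cause was not tested. Leaving out Vps15LKO replicate 3 made Ccl24 called higher (0.57). Pseudocounts, voom, edgeR and limma without a trend changed no call. Same-numbered livers did not deviate together (correlations −0.01, −0.01 and 0.05), so the numbers do not pair them. With replicate number as a block, 21 members were higher and 4 lower, beside 32.8% and 32.3% of all tested genes. The limma calls of Cxcr6 (adjusted p = 0.0652) and Ccl25 (0.0706) were lost. In simulation 40% of 1.5-fold changes were recovered, so changes of that size can be missed under its settings. It changed 200 genes at a set dispersion of 0.02, whereas 66.5% of all tested genes were called in the data. The recovery in the data may therefore differ.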
